A study of Homo sapiens with 6 samples.

Results

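Small nucleolar RNAs (snoRNAs) are short stable RNAs that guide the chemical modification of ribosomal RNA. Box C/D snoRNAs, named SNORD, carry a C box near the start and a D box near the end and guide ribose methylation by the methyltransferase fibrillarin (FBL). Box H/ACA snoRNAs, named SNORA, end in an ACA motif followed by a few bases and guide the conversion of uridine to pseudouridine by dyskerin (DKC1). Small Cajal body RNAs, named SCARNA, do the same to spliceosomal RNAs in the Cajal body. In human cells most of these RNAs have no promoter of their own and are cut out of the introns of host genes, many of which encode ribosomal proteins, so their release depends on splicing of the host transcript.

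The 75 RNAs described here were selected on measured values: their names begin with SNORA, SNORD or SCARNA and a digit, and their mean over the 6 libraries was at least 1 FPKM, the number of sequenced fragments per kilobase of the RNA after scaling to library size. In the table of 31142 genes, 281 entries had such a name, and 206 of them had a mean under 1 FPKM. The mean of every RNA was therefore bounded by the choice and is given as a description only. The choice used neither the difference between the groups nor the spread within them, except that a gene low in one group could pass only by being high in the other. This applied to 8 of the 75, whose mean was under 1 FPKM in one group, and 1 of these 8, SNORA57, had an unadjusted p under 0.05 in limma. Just inside the limit stood SNORD3D at 1.00 FPKM and SNORD94 at 1.03 FPKM, and just outside it SNORA9B at 0.935 FPKM and SNORD37 at 0.924 FPKM.

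The 6 libraries were labelled as SKM-1 cells, a human acute myeloid leukemia line derived from myelodysplastic syndrome (MDS), with 3 libraries labelled S34F mutant U2AF1 and 3 labelled wild type. U2AF1 is the splicing factor that reads the end of the intron, and the study delivered FLAG-tagged forms of it by lentivirus into stably transduced cells. RNA was taken at 96 h. The WT titles begin with NC, the study's abbreviation for negative controls, which were untransfected cells, and the series' design text speaks of a vehicle control. The groups were taken from the U2AF1 form in the titles and are called S34F and WT, and whether the WT libraries carry the tagged wild-type form is not settled by the labels. The paper speaks of 3 pairs of independent RNA samples. Neither it nor the labels say that the 3 samples of a group came from separate cultures. The p-values therefore measure the spread between these samples, which may be technical.

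The libraries were of similar depth, about 20.5 to 26.1 M fragments as read from single-exon genes. The marker genes did not follow the label in full: 7 of 12 monocytic and myeloid markers had a mean under 1 FPKM, with MPO, FCN1, S100A8 and CSF1R at or near 0. The other myeloid markers, CD68, LYZ, CEBPD, CD33 and ITGAM, averaged 46.3, 15.65, 5.53, 2.44 and 2.42 FPKM. Of 12 erythroid markers, 10 had a mean of at least 10 FPKM. The summed myeloid markers ranged from 52.0 to 80.6 FPKM in S34F and from 74.0 to 94.3 FPKM in WT. The summed erythroid markers ranged from 12200 to 13960 FPKM in S34F and from 11780 to 12910 FPKM in WT. U2AF1 itself was 9.30 ± 0.159 FPKM in S34F and 8.34 ± 0.595 FPKM in WT (SD, n = 3), a total that does not tell the mutant from the wild-type form. Replicate 3 of S34F stood apart, being the highest library for 31.4% and the lowest for 27.3% of the 10942 genes tested. Replicate 3 of WT was the lowest library for 23.6% of all genes tested and for 29 of the 75 RNAs, or 38.7%.

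The sequences shown first are those of SNORD104, the box C/D member next in level after SNORD58B, whose sequence is not shown, and of the highest box H/ACA and SCARNA members, with the C box and D box (TGATGA in the first 20 bases, CTGA in the last 15) or the ACA (3 bases before the end) in capitals. They were read from the GENCODE 29 transcripts on GRCh38, since the authors' build is not given in the sources used here. In all that follows an exon is an exon of any annotated transcript of the gene. An RNA placed in an exon can thus lie in an intron of the gene's other transcripts. SNORD104 lies in an intron of SNHG25 (chr17:64146083-64146152, plus strand), SNORA52 lies in an exon of RPLP2 (chr11:811681-811814, plus strand), and SCARNA12 lies partly in an exon of PHB2 (chr12:6967337-6967606, minus strand).
SNORD104: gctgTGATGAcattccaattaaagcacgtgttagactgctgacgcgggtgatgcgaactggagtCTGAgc
SNORA52: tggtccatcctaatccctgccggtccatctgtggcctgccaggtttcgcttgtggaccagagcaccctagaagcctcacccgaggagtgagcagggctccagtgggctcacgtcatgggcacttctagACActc
SCARNA12: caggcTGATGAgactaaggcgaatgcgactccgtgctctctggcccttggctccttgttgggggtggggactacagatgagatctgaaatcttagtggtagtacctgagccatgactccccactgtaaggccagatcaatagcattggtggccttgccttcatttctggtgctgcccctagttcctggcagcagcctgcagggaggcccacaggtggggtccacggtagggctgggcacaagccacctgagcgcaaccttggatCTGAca
Among the box C/D members with a transcript sequence, 25 of 37 (67.6%) held TGATGA in the first 20 bases and 35 of 37 (94.6%) held CTGA in the last 15. Over all box C/D names in the table the shares were 58.3% and 92.1%. Among the box H/ACA members, 24 of 32 had ACA 3 bases before the end, against 77.8% of all box H/ACA names. Only the strand of the RNA itself was searched. The absence of a motif says only that these letters are not in that window.

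A second set shows members whose FPKM switched between libraries of one group, beside steady neighbours. SNORD22 (chr11:62852910-62853035), SNORD27 (chr11:62855012-62855083) and SNORD26 (chr11:62855292-62855366) all lie on the minus strand in exons of SNHG1, a non-coding host gene. SNORD83A (chr22:39315213-39315307, intron) and SNORD83B (chr22:39313819-39313911, exon) lie on the minus strand in RPL3. SNORD36A (chr9:133350456-133350528) lies on the plus strand in an exon of RPL7A, and SNORA57 (chr11:62665422-62665570) on the plus strand in an exon of CSKMT.
SNORD22: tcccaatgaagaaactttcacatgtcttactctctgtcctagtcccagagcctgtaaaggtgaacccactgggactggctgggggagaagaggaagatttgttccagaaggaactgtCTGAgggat
SNORD27: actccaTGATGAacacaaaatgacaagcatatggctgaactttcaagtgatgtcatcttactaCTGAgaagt
SNORD26: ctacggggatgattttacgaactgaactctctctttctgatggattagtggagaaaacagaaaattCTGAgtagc
SNORD83A: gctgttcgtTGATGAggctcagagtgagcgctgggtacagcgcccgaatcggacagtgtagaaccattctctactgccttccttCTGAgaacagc
SNORD83B: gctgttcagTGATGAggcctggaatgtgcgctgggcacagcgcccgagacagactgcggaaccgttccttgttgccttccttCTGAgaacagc
SNORD36A: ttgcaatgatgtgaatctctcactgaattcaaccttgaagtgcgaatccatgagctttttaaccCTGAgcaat
SNORA57: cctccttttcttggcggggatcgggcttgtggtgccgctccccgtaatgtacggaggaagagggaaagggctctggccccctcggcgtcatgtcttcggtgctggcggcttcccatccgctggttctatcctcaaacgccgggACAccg
SNORD83A and SNORD83B shared 76 bases, 80% of the longer RNA. The 73 members with 1 transcript made 1168 pairs within a class, of which 11 shared at least 80% of their bases and 0 at least 90%. SNORD3A and SNORA71B, with 2 transcripts each, were not compared. Their likeness to SNORD3D and to the other SNORA71 copies is therefore not covered. The closest were SNORD88B and SNORD88C at 87.9%, and the others, beside the SNORD83 pair, were copies within the SNORD14 and SNORA71 families together with SNORA60. The 12 members of these pairs could share fragments, and their separate values are uncertain to that extent.

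A last set shows members that were lower in S34F at an unadjusted p under 0.05. SNORA24 (chr4:118279190-118279320, plus strand) lies in an exon of SNHG8, SNORD58A (chr18:49491283-49491347, minus strand) in an exon of RPL17, and SNORD99 (chr1:28578749-28578822, minus strand) in an intron of SNHG12.
SNORA24: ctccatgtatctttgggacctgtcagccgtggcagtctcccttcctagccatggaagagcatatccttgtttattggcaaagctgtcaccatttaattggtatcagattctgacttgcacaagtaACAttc
SNORD58A: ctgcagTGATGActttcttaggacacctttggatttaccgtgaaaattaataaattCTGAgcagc
SNORD99: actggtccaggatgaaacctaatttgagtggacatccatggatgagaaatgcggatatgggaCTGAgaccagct

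Box C/D RNAs were the largest and most abundant class among the 75. It held 38 of the 142 box C/D names in the table, with a median of 4.22 FPKM (the authors' unit, averaged over 6 libraries) and a range from 1.00 to 106 FPKM. The box H/ACA class held 33 of 118 names, with a median of 3.10 and a range from 1.12 to 21.0 FPKM. Only 4 of 21 SCARNA names passed, with a median of 2.98 and a range from 1.07 to 10.5 FPKM. FPKM is a level per length, and the classes differ in length, with a median of 86.5 nt for box C/D, 134 nt for box H/ACA and 207 nt for SCARNA. Summed over members, box C/D RNAs made 67.2% of the FPKM of the 75, box H/ACA RNAs 29.4% and SCARNA 3.42%. The 75 together made 0.129% to 0.155% of a library's summed FPKM. Whether the libraries were made with selection for poly(A) tails, which most mature snoRNAs lack, is not given in the sources used here.

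**Figure D1:**
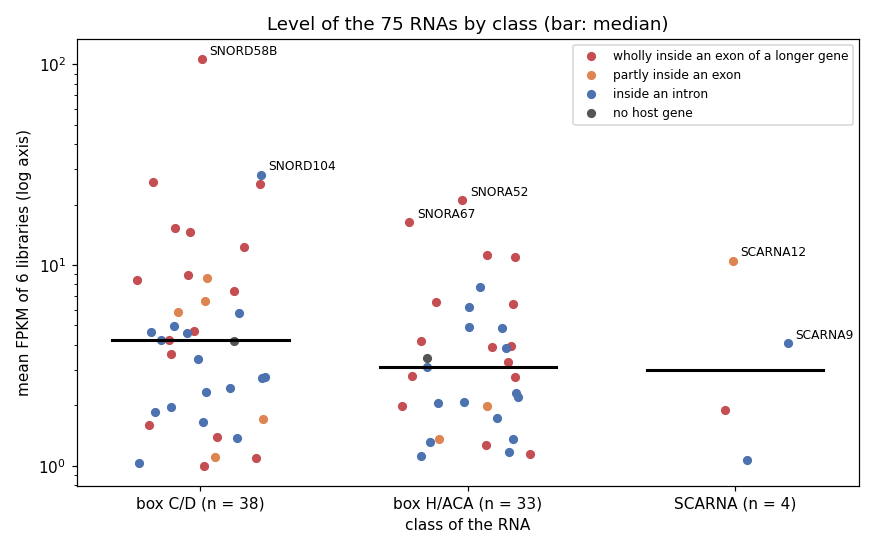
Mean FPKM over the 6 libraries (log axis) of each of the 75 RNAs, by class, with a bar at the class median and colours for the position in the host gene. SNORD58B stands alone at 106 FPKM, and most RNAs lie between 1 and 10 FPKM in every class.

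The level of the box C/D class rested on few RNAs. SNORD58B alone made 30.9% of its sum. All 66 bases of this RNA lie inside an annotated exon of its host RPL17. Its FPKM may therefore include fragments of the host, which was not tested. SNORD58B measured 95.8, 97.3 and 129 FPKM in S34F replicates 1, 2 and 3, and 103, 103 and 108 FPKM in WT replicates 1, 2 and 3. The groups overlapped, and its difference on the log2(FPKM + 1) scale did not pass the test in any of the 6 fits that left out a library (limma, unadjusted p from 0.131 to 0.961). Its relative SNORD58A lies in the same host gene, RPL17, which encodes a protein of the large ribosomal subunit and averaged 222 FPKM. SNORD58A averaged 1.39 FPKM, although 52 bases, 78.8% of the longer RNA, are the same in both.

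SNORD104, SNORD88B and SNORD26 followed in the box C/D class, with SNORD36A described among the switching RNAs. SNORD104 measured 33.5, 29.3 and 26.5 FPKM in S34F and 30.3, 26.7 and 22.3 FPKM in WT. SNORD88B, in an exon of C19orf48, measured 27.0, 25.9 and 18.1 FPKM in S34F and 30.3, 37.0 and 17.7 FPKM in WT. SNORD26 measured 25.5, 28.9 and 19.4 FPKM in S34F and 30.2, 30.6 and 16.6 FPKM in WT. In each of the 3 RNAs replicate 3 was the lowest library of both groups, and the groups overlapped.

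SNORA52 led the box H/ACA class. It measured 22.1, 25.6 and 21.4 FPKM in S34F and 19.9, 19.9 and 17.1 FPKM in WT, so the groups did not overlap, although the difference of 0.27 ± 0.12 (SE) on the log2(FPKM + 1) scale missed the test without the replicate block (limma, unadjusted p = 0.0627) and had an unadjusted p of 0.0353 with it. SNORA67 followed at a mean of 16.3 FPKM, ranging from 14.9 to 18.3. SNORA77B averaged 11.2, SNORA64 10.99 and SNORA73B, an RNA of the U17 family needed for processing of the ribosomal RNA precursor, 7.78 FPKM. In SNORA73B one library stood out, with 7.39, 6.44 and 14.2 FPKM in S34F and 6.18, 7.52 and 4.93 FPKM in WT.

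The 4 SCARNA members were SCARNA12, SCARNA9, SCARNA17 and SCARNA22. SCARNA12 measured 19.4, 12.8 and 3.04 FPKM in S34F and 14.7, 8.07 and 4.83 FPKM in WT, and made 59.8% of the class sum. SCARNA9 measured 3.46, 3.502 and 3.32 FPKM in S34F and 5.07, 3.83 and 5.24 FPKM in WT, the groups standing apart. SCARNA17 averaged 1.90 and SCARNA22 1.07 FPKM, and in both the groups overlapped.

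Class sums did not differ between S34F and WT beyond the spread of the libraries. Box C/D members summed to 338 ± 11.2 FPKM in S34F and 350 ± 20.2 FPKM in WT (SD, n = 3), a ratio of 0.965 (exact permutation test, two-sided, p = 0.4). Box H/ACA members summed to 160 ± 13.9 and 140 ± 20.04 FPKM (SD, n = 3), a ratio of 1.14 (exact permutation test, two-sided, p = 0.3). SCARNA members summed to 17.9 ± 8.18 and 17.1 ± 6.53 FPKM (SD, n = 3), a ratio of 1.05 (exact permutation test, two-sided, p = 0.9). With 3 libraries against 3 the smallest p this test allows is 0.1, and in bulk RNA fewer cells with an RNA and less of it per cell cannot be told apart. The box C/D ratio turned to 1.07 when members that share exonic bases with another gene were left out, and the SCARNA ratio turned to 0.821 without S34F replicate 1 and to 0.892 without WT replicate 3.

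**Figure D2:**
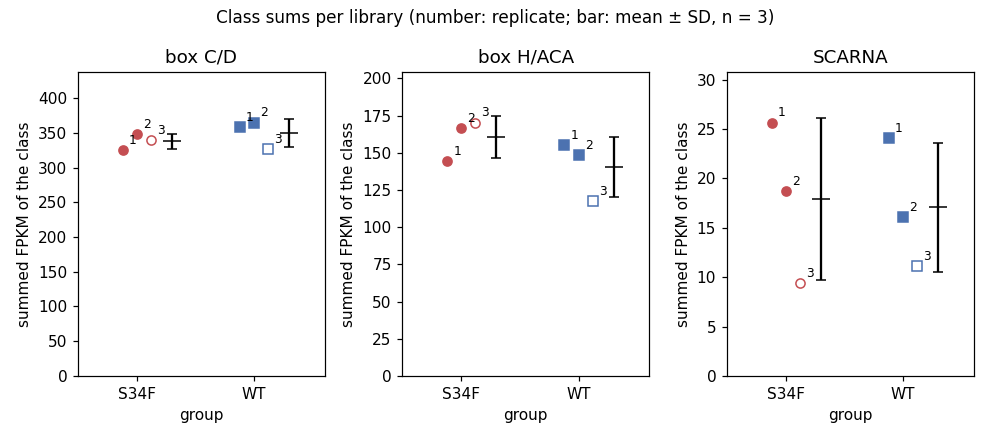
Summed FPKM of the members of each class in each library, S34F as circles and WT as squares, with the replicate number beside each point and the mean ± SD of 3 libraries at the side. The groups overlap in all 3 classes, and the SCARNA sums run from 9.37 to 25.7 FPKM within S34F.

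The spread between libraries of one group was wide for many members. The SD within a group of 3, pooled over both groups on the log2(FPKM + 1) scale, had a median of 0.341 over the 75. It was 0.181 over all genes tested, 0.182 over genes tested with a mean of 1 to 30 FPKM and 0.168 over the 49 host genes tested. Other genes of at most 353 nt, the length of the longest member but SNORD3A, had a median of 0.289. By class the median was 0.364 for box C/D, 0.287 for box H/ACA and 0.501 for SCARNA. An SD above 1 was found in 6 of the 75, or 8.0%, in 0.896% of all genes tested and in 6.34% of the other short genes. These medians and shares are descriptions and were not tested against each other.

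The widest spreads were found in exonic members. All 6 members with an SD above 1 were among the 32 that lie wholly inside an annotated exon of a longer gene on the same strand, where an RNA and its host cannot be told apart by position. Exons of all annotated transcripts were merged, so which of the 32 are exonic in the host's main transcript is not known. None of the 33 intronic members reached 1, their median SD was 0.285 and their highest 0.594. The 32 wholly exonic members had a median of 0.348 and a highest value of 2.48, and an SD above 0.5 was found in 11 of them and in 3 of the 33 intronic members. The other members were 8 that lie partly in an exon and 2, SNORD3A and SNORA11F, without a host. The levels differed as well, with a median of 4.44 FPKM for wholly exonic and 2.45 FPKM for intronic members. Whether fragments of the host entered the exonic values was not tested, as the deposited values do not record how fragments were shared.

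**Figure D3:**
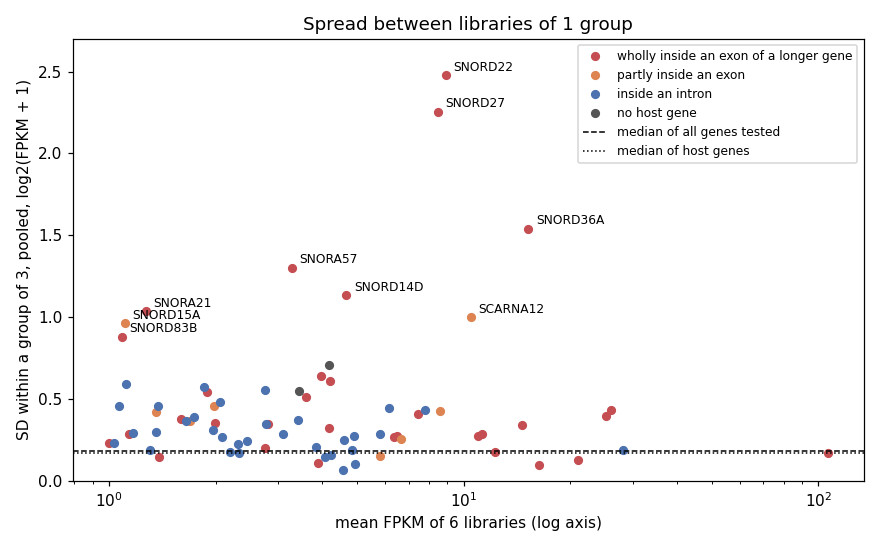
SD between libraries of one group on the log2(FPKM + 1) scale against the mean FPKM (log axis) of each RNA, coloured by its position in the host gene. The 6 RNAs above an SD of 1 all lie wholly inside an exon of a longer gene, and SNORD22 is highest at 2.48.

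Some members were present in certain libraries and near 0 in others of the same group. For 10 members the highest library of a group was at least 5 times the lowest, with values under 1 fragment set to 1 fragment, and for 6 of them at least 10 times. One fragment is worth about 0.330 FPKM for SNORD22 and 0.578 FPKM for SNORD27 at these depths, averaged over libraries. Whole fragments were not recovered for short genes, so this worth is a nominal scale and not a measured floor. In all, 10 of the 75 had at least 1 library under 1 fragment.

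SNORD22 and SNORD27, both in SNHG1, showed the widest swings. SNORD22 measured 0.232, 33.3 and 0.981 FPKM in S34F and 0.279, 0.0634 and 18.5 FPKM in WT. It was high in S34F replicate 2 and WT replicate 3 and under 1 FPKM in the other libraries. SNORD27 measured 21.5, 0.105 and 16.4 FPKM in S34F and 0.113, 0.108 and 12.6 FPKM in WT. In S34F each library was high in only one of the pair, whereas in WT replicate 3 was high in both and the other libraries in neither. SNHG1 itself measured 28.6, 26.1 and 23.7 FPKM in S34F and 29.6, 27.6 and 19.3 FPKM in WT. The host was lowest in WT replicate 3, where both RNAs were high. Its other members, SNORD26 and SNORD30, did not switch, and SNORD30 stayed between 5.01 and 8.53 FPKM.

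SNORA57 was the RNA with the largest rise in S34F and was carried by a pair of libraries. It measured 0.156, 9.84 and 9.28 FPKM in S34F and 0.136, 0.133 and 0.121 FPKM in WT. The first S34F library and all WT libraries were under 1 fragment, which is worth 0.279 FPKM, and S34F replicates 2 and 3 were high. The host CSKMT, which encodes a mitochondrial methyltransferase, measured 2.61, 2.59 and 3.33 FPKM in S34F and 3.45, 3.59 and 2.98 FPKM in WT, where the groups overlapped. The difference on the log2(FPKM + 1) scale was 2.16 ± 0.82 (SE; limma, unadjusted p = 0.0342, adjusted p = 1.00). Leaving out S34F replicate 1 gave a difference of 3.22 with an adjusted p of 0.00166 in limma, the only adjusted p under 0.05 of any member in any fit, and in each of the other 5 fits that left out a library the unadjusted p was above 0.05, up to 0.120. A fold for SNORA57 is not given, since every WT library was under 1 fragment. The RNA passed the limit of 1 FPKM through S34F only, so these p-values are a description and no support for a rise.

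SNORD36A was near 0 in 1 S34F library. It measured 10.8, 13.5 and 0.0123 FPKM in S34F and 25.8, 26.0 and 15.1 FPKM in WT, the groups standing apart. The S34F mean was 0.364 times the WT mean, yet S34F replicate 3 alone was under 1 fragment, and the difference of -2.02 ± 0.97 (SE) did not pass the test (limma, unadjusted p = 0.0755). Without S34F replicate 3 the difference was -0.79 with an unadjusted p of 0.0248 in limma, and 3 of the 6 fits that left out a library, those without an S34F library, had an unadjusted p under 0.05. With the replicate block the unadjusted p was 0.0256. Its host RPL7A, a protein of the large ribosomal subunit, stayed between 1180 and 1341 FPKM.

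SNORD14D, of the U14 family that takes part in processing of the small subunit RNA, measured 0.00529, 3.30 and 7.23 FPKM in S34F and 7.36, 3.91 and 6.25 FPKM in WT. Its host HSPA8, a chaperone of the heat shock family, stayed between 484 and 627 FPKM, and the neighbours SNORD14C and SNORD14E were found in all libraries. SNORD15A, in RPS3, measured 0.0349, 3.22 and 0.00378 FPKM in S34F and 0.805, 2.28 and 0.316 FPKM in WT. SNORA21, in RPL23, measured 0.0227, 2.003 and 2.67 FPKM in S34F and 0.0449, 2.82 and 0.0511 FPKM in WT. SNORD83B, in RPL3, measured 1.78, 0.00402 and 4.41 FPKM in S34F and 0.00573, 0.00600 and 0.312 FPKM in WT, while SNORD83A in an intron of the same gene stayed between 4.04 and 4.85 FPKM. The libraries that were high differed from one RNA to the next. SNORA71D and SCARNA12 completed the 10, with values from 0.232 to 2.004 and from 3.04 to 19.4 FPKM.

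**Figure D4:**
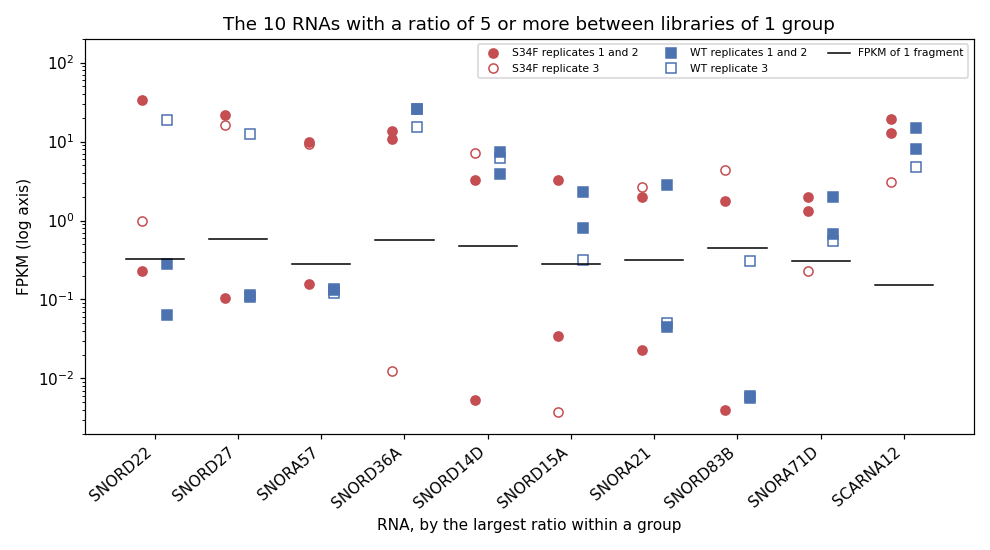
FPKM (log axis) in each library of the 10 RNAs with a ratio of at least 5 between libraries of one group, S34F as circles and WT as squares, replicate 3 open, with a black line at the FPKM of 1 fragment. SNORA57 is above the line only in S34F replicates 2 and 3, and SNORD36A is below it only in S34F replicate 3.

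S34F replicate 3 was also high in several RNAs made from their own promoters. SNORD3A, the U3 RNA that takes part in cleavage of the ribosomal RNA precursor, measured 2.66, 2.15 and 9.28 FPKM in S34F and 2.74, 3.20 and 5.07 FPKM in WT. The annotated SNORD3A spans 699 nt, and fragments could also be shared with other copies such as SNORD3D. That copy went the other way, with S34F replicate 3 as its lowest library. It measured 0.762, 0.768 and 0.719 FPKM in S34F and 1.73, 0.746 and 1.28 FPKM in WT. Among non-members without a poly(A) tail, RN7SK measured 8.65, 7.79 and 171 FPKM in S34F, and in WT it reached 14.6 FPKM in replicate 1 and 42.1 FPKM in replicate 3. RMRP measured 3.85, 1.45 and 30.6 FPKM in S34F and 2.44, 1.90 and 3.04 FPKM in WT. RPPH1, the RNA of ribonuclease P, measured 2.05, 0.259 and 24.1 FPKM in S34F and 1.56, 1.79 and 4.18 FPKM in WT. The part of this library's RNA content in the members' values was not tested. Over the 75 members S34F replicate 3 was the highest library for 13 and the lowest for 12.

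Between S34F and WT, 8 of the 75 RNAs had an unadjusted p under 0.05 in limma and 0 had an adjusted p under 0.05, the smallest adjusted p being 1.00. Over all 10942 genes tested 262, or 2.39%, had an unadjusted p under 0.05 and 0 (0.0%) an adjusted one. Of the 8, 7 were lower in S34F and 1, SNORA57, was higher. Of the 262 genes, 172 were lower in S34F, which is 1.57% of all genes tested. A fold above 1.5 in FPKM + 1 was found beside the unadjusted p in 4 members, against 0.585% of all genes, and by the ratio of mean FPKM SNORD58A made the count 5. The groups did not overlap in 10 members, or 13.3%, against 7.38% of all genes. Among them was SNORA57, whose S34F replicate 1 at 0.156 FPKM and WT libraries of at most 0.136 FPKM were all under 1 fragment. The median difference of the members was 0.039 on the log2(FPKM + 1) scale and that of all genes 0.015, with 44 members above and 31 below 0. With the replicate number as a block 17 members had an unadjusted p under 0.05, 7 higher and 10 lower, against 4.05% of all genes, and again 0 had an adjusted p under 0.05. Of the 8 members that passed the limit of 1 FPKM through one group only, 5 were among these 17, and 4 of them, SNORA57, SNORD83B, SNORA41 and SCARNA22, were among the 7 higher ones, so these counts are no support for a direction. The block kept the 8 members named without it and added SNORA52, SNORA41, SNORD14A, SNORD42B, SNORD83B and SCARNA22 on the higher side and SNORD36A, SNORA60 and SNORD88C on the lower. Without replicate 3 of both groups the count was likewise 17, with 3 higher and 14 lower, in a fit where 16.9% of all genes had an unadjusted p under 0.05.

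Only SNORA24 and SNORD87 kept an unadjusted p under 0.05 in each of the 6 fits that left out a library. SNORA24, a box H/ACA RNA in SNHG8, measured 2.33, 1.55 and 2.04 FPKM in S34F and 3.15, 3.12 and 4.32 FPKM in WT. Every S34F library was below every WT library, and the difference was -0.61 ± 0.16 (SE; limma, unadjusted p = 0.00635, adjusted p = 1.00). Its host SNHG8, a non-coding gene, measured 47.2, 49.1 and 59.6 FPKM in S34F and 61.5, 58.9 and 57.7 FPKM in WT, and the host groups overlapped. SNORD87, a box C/D RNA in an exon of SNHG6, measured 3.94, 5.99 and 4.25 FPKM in S34F and 10.2, 13.9 and 6.32 FPKM in WT. The S34F libraries were again the lower ones, with a difference of -0.92 ± 0.27 (SE; limma, unadjusted p = 0.0123, adjusted p = 1.00). SNHG6 measured 97.7, 107 and 130 FPKM in S34F and 101, 99.6 and 122 FPKM in WT, with no such separation.

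The other members with an unadjusted p under 0.05 in limma each lost it in some of the fits that left out a library. SNORD58A measured 1.24, 0.835 and 1.14 FPKM in S34F and 1.94, 1.76 and 1.42 FPKM in WT, a difference of -0.39 ± 0.13 (SE). It kept the unadjusted p under 0.05 in 3 of the 6 fits. SNORD32A, in RPL13A, measured 9.87, 9.08 and 12.7 FPKM in S34F and 14.0, 14.8 and 13.1 FPKM in WT, a difference of -0.38 ± 0.14 (SE), kept in 2 of the 6. Both RNAs were lower in every S34F library than in any WT library. For SNORD58A 1 fragment is nominally worth about 0.641 FPKM, so its libraries differed on the scale of single fragments. All 65 of its bases lie in an exon of RPL17, and whether fragments of the host entered its values was not tested.

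SCARNA9, in an intron of CEP295, fell by 0.36 ± 0.13 (SE) on the log2(FPKM + 1) scale and lies in a host of only 0.454 FPKM, so the RNA was listed at 8.95 times its host. SNORA26, in an intron of the non-coding gene DANCR, measured 1.54, 1.59 and 2.22 FPKM in S34F and 2.33, 2.40 and 3.07 FPKM in WT. The S34F values again all lay below those of WT, with a difference of -0.37 ± 0.14 (SE). SNORD99, in an intron of SNHG12, measured 0.845, 0.896 and 3.57 FPKM in S34F and 2.87, 4.50 and 3.83 FPKM in WT, so the low values were those of S34F replicates 1 and 2 and the groups overlapped. For SNORD99 1 fragment is nominally worth about 0.563 FPKM, so those low values were close to it. SCARNA9, SNORA26 and SNORD99 each kept an unadjusted p under 0.05 in 2 of the 6 fits. SNHG12 measured 2.29, 2.24 and 2.06 FPKM in S34F and 2.68, 3.08 and 2.47 FPKM in WT, so this host was lower in every S34F library as well, without passing the test (limma, unadjusted p = 0.0748). DANCR did not pass the test, and CEP295, at under 1 FPKM, was not tested.

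Of the 73 members with a host, 52 lay in protein-coding genes, 22 of these in 15 ribosomal protein genes, and 17 in non-coding genes of the SNHG type. The 36 members that shared a host with another member lay in 15 genes. Per length, members stood at a median of 10.9% of the host's FPKM, and 7 members stood above their host. SNORD104 averaged 28.1 FPKM against 3.41 FPKM for SNHG25, and SCARNA17 stood at 25.7 times SNHG22, which was listed at 0.0738 FPKM. At the other end SNORD101, SNORD100 and SNORA33 averaged 1.96, 1.65 and 3.84 FPKM inside RPS12, a host of 2361 FPKM. SNORA5A and SNORA5C, both in TBRG4, averaged 4.91 and 4.86 FPKM.

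The host genes varied little between libraries, with the median SD of 0.168 given above. Of the 49 hosts tested, 1 had an unadjusted p under 0.05 in limma, against 2.39% of all genes, and 0 an adjusted p under 0.05. The one was TCP1, a subunit of the chaperonin that folds actin and tubulin, at 62.1, 64.2 and 70.8 FPKM in S34F and 47.0, 51.2 and 56.3 FPKM in WT, where the groups did not overlap. Its member SNORA20 measured 0.782, 1.82 and 2.86 FPKM in S34F and 1.18, 0.810 and 0.675 FPKM in WT and did not pass the test (limma, unadjusted p = 0.105). The median difference of the hosts was -0.0088 on the log2(FPKM + 1) scale. Without replicate 3 of both groups 14 of the 49 hosts had an unadjusted p under 0.05 in limma, in a fit where 16.9% of all genes did.

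The proteins that make and use these RNAs did not pass the test either. Of a list of 30 genes for snoRNA protein partners, assembly, transport, processing and decay, 28 were tested and 0 had an unadjusted p under 0.05 in limma, the smallest being 0.140. XRN1 and TENT4B, which act in RNA decay and tailing, had a mean under 1 FPKM. The box C/D core proteins FBL, NOP56, NOP58 and SNU13 averaged 274, 37.4, 11.2 and 57.1 FPKM. The box H/ACA core proteins DKC1, NOP10, NHP2 and GAR1 averaged 19.8, 301, 113 and 31.1 FPKM. FBL measured 335, 318 and 192 FPKM in S34F and 234, 300 and 266 FPKM in WT, the groups overlapping. Coilin (COIL), the scaffold of the Cajal body, averaged 9.13 FPKM and WRAP53, which brings scaRNAs there, 4.73 FPKM. DBR1, which opens the intron lariats from which snoRNAs are released, averaged 4.12 FPKM. The list had a median difference of 0.041 on the log2(FPKM + 1) scale. Without replicate 3 of both groups 3 of the 28 genes had an unadjusted p under 0.05, against 16.9% of all genes in that fit.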

How the data were processed

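Libraries of 6 samples, 3 titled S34F and 3 titled WT, were sequenced on an Illumina X10. The authors deposited FPKM values of 31142 genes, and their processing notes name StringTie and edgeR without version or role. The heading says FPKM, and none of the values above 0 is whole, although the table is named for counts. Aligner, build and annotation are not given in the sources used here. The table also holds the authors' own fold changes, log2 fold changes, p-values and q-values, which were not used. No column of per-sample values was left out.

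Members and lists were chosen with earlier results of these data known. Differences were tested with limma 3.58.1 (R 4.3.3) on log2(FPKM + 1), with a trend of the variance, for 10942 genes averaging at least 1 FPKM, and Benjamini-Hochberg adjustment covered all of them. Differences on this scale understate those of low genes. Class sums were compared by exact permutation tests (scipy 1.17.1). The genes named are the 5 highest of each class, all at an unadjusted p below 0.05, the 5 with the largest ratio within a group, those nearest the limit, those with separate groups and a fold above 1.5, their hosts, and the protein partners. Other members named as switching or as neighbours, and RN7SK, RMRP and RPPH1, were added after their values were seen.

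Depth was read from single-exon genes, whose FPKM times length gathers at the worth of 1 fragment. Of values of genes of at least 250 nt, 34.2% to 36.8% lay within 0.05 of whole fragments, and of genes of at most 160 nt 6.93% to 13.9%, so whole fragments of the members were not recovered. Most values of the longer genes were not near whole fragments either, so the depths and the worth of 1 fragment are approximate. The worth of 1 fragment bears on counting error only.

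Positions, hosts and sequences were taken from GENCODE 29 (GRCh38), where 31002 identifiers were found. A host is a longer gene that holds the whole RNA on its strand. Exons were merged over all annotated transcripts of a gene. Identity came from global alignment (Biopython 1.88) of the 73 members with 1 transcript. Whether counting used strand is not given, and 6 members have a gene on the opposite strand.

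Deviations from the group means correlated across genes at 0.212, 0.174 and 0.38 between libraries numbered 1, 2 and 3. Each was over 0.1, which was taken as a sign of pairing. Libraries of different number also correlated, at 0.197 (S34F 2 with WT 1) and 0.134 (S34F 1 with WT 2). S34F 2 was thus closer to WT 1 than to WT 2, and pairing by number is not settled. The paper mentions 3 pairs of independent RNA samples and does not name the libraries of a pair. The tests had no block, and a fit with the replicate block was the alternative. Other pseudocounts, filters and scalings, no trend, and each library left out were tried as well. The limma step was tested on simulated data. Python 3.11.15, numpy 2.4.6, pandas 2.3.3 and matplotlib 3.10.9 were used.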

Additional observations from a re-analysis of the deposited data

How the results depend on the processing

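The count of members with an unadjusted p under 0.05 in limma was 8, and 17 with the replicate block, 17 without replicate 3 of both groups (chosen after seeing the data), 2 of 23 tested at a mean of at least 5 FPKM, and 5 to 12 when 1 library was left out, the 5 without WT replicate 1 and the 12 without S34F replicate 3. The count at an adjusted p under 0.05 was 0 in every fit except that without S34F replicate 1, where SNORA57 made it 1, so it ran from 0 to 1. The median difference of the members, 0.039, was 0.14 at a mean of at least 5 FPKM, -0.095 without replicate 3 of both groups and -0.102 to 0.090 when 1 library was left out, so its sign rests on single libraries. The median SD within a group, 0.341, was 0.458 with a pseudocount of 0.1, 0.478 with 0.01, 0.284 at a mean of at least 5 FPKM, 0.290 without members that share exonic bases, 0.237 without replicate 3 of both groups and 0.277 to 0.332 when 1 library was left out. The count of protein partner genes was 3 without replicate 3 of both groups and 0 to 2 when 1 library was left out, the 2 coming without S34F replicate 3. That of hosts was 14 without replicate 3 of both groups and 0 to 7 when 1 library was left out, the 7 without S34F replicate 3 and the 0 without WT replicate 1. Without S34F replicate 3, 10.6% of all genes had an unadjusted p under 0.05.

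The ratio of the box C/D sums, 0.965, turned to 1.07 without members that share exonic bases and to 1.00 as a median over members. It was 0.934 to 0.986 with 1 library left out, and the box H/ACA ratio was 1.06 to 1.21. The SCARNA ratio of 1.05 ran from 0.821 to 1.32 with 1 library left out. Exonic bases were shared with any gene, small RNA entries included, by 43 members. SCARNA9, intronic in CEP295, was among these because of such entries. Without the 43 the SCARNA ratio was 1.78, but this left only SCARNA22, at a mean of 1.07 FPKM. That RNA passed the limit of 1 FPKM through S34F only, its WT mean being 0.767 FPKM. The causes were not tested. With the replicate block no adjusted p passed the threshold, and the class ratios were 0.966, 1.15 and 1.01. Median-ratio scaling, quantile normalization and a fit without the trend left the 8 members' calls as they were. With no filter on low values 7 members passed at an unadjusted 0.05, of which 6 were among the 8. SNORA57 and SNORD99 no longer passed (limma over all genes, unadjusted p = 0.0517 and 0.0603), and SNORA52 did. Values near 1 fragment, and 3 libraries a group, limit what can be seen.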

Other observations

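SNORD118, the U8 RNA that takes part in maturation of the large ribosomal subunit RNA, was below the limit for the 75 at a mean of 0.472 FPKM. It measured 0.0789, 0.0782 and 2.40 FPKM in S34F replicates 1, 2 and 3 and 0.0830, 0.149 and 0.0469 FPKM in WT replicates 1, 2 and 3. S34F replicate 3 was the only library above 1 FPKM. SNORA3B, in an intron of RPL27A, was likewise highest in that library, at 10.9 FPKM against 4.43 to 6.31 FPKM in the other libraries.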
